A study of Homo sapiens with 12 samples.

Results

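HAND1, HAND2 and HAND2-AS1 are 3 of the 27514 genes listed in a deposited expression table for IMR32 cells, a human neuroblastoma line that carries an amplified MYCN gene. They were chosen by name, with earlier results of these data known: the HAND subfamily of transcription factors and the non-coding transcript that is read from the strand opposite HAND2. The cells were transfected by electroporation with a control siRNA (siCtrl), an siRNA to MYCN (siMYCN), an siRNA to HAND2 (siHAND2) or both (siMYCN+siHAND2), and RNA was extracted after 72 h. Each of the 4 groups had 3 samples, and all of them, the controls included, were transfected and grown in the same medium. The labels name a single siRNA for each gene, whose sequence was not given in the sources used here. Nothing in the labels says that replicates came from separate cultures, so p-values measure the spread between these samples, which may be technical. All 3 genes passed the filter on low values, a mean of at least 1 CPM (reads scaled to a common library total), as did 12680 genes in all.

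HAND1 and HAND2 are basic helix-loop-helix (bHLH) proteins of the TWIST class. They bind DNA mostly as dimers with the widely expressed E proteins, while ID proteins hold E proteins in dimers that do not bind DNA. In the embryo both HAND genes act in the heart and in the neural crest. In sympathetic neuroblasts, the lineage from which neuroblastoma arises, HAND2 acts downstream of bone morphogenetic proteins (BMPs), together with PHOX2A and GATA factors, in turning on the genes of noradrenaline synthesis. HAND2-AS1 is a long non-coding RNA made head to head with HAND2.

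Sequences are shown first for the coding stretch over which the HAND genes are most alike, because both genes were lower in the siHAND2 samples and because reads are told apart by such bases. In the hg19 reference genome HAND1-201 has 215 codons and HAND2-201 has 217. Their aligned coding sequences were 68.4% identical over 632 bases. The best stretch of 180 bases matched at 156 of them (86.7%) and covers the helix-loop-helix. It lies in exon 1 of each gene, at chr5:153857067-153857246 for HAND1 and chr4:174449924-174450103 for HAND2, both on the minus strand. Capitals mark the bases that differ.
HAND1: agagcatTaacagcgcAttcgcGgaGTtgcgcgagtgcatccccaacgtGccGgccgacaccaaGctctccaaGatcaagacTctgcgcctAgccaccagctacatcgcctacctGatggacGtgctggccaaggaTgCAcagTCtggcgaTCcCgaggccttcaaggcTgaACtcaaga
HAND2: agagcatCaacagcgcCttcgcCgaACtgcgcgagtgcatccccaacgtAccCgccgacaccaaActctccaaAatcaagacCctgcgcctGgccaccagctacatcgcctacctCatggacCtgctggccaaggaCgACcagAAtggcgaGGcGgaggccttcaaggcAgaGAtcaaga
The longest run shared without a mismatch was 23 bases, at chr5:153857132-153857154 in HAND1 and chr4:174449989-174450011 in HAND2. A run of 22 bases was the next longest, and both runs are coding in both genes.

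The start regions are shown next, 250 bases upstream of the annotated start of HAND2-201 (chr4:174451381-174451630, minus strand, hg19) and of HAND1-201 (chr5:153857788-153858037, minus strand, hg19). Both agree base for base with the RefSeq promoter table, which is built on GRCh38.p14. They are shown because both genes moved in the same direction in each knockdown and because the most frequent HAND2-AS1 start falls inside the HAND2 window. Capitals mark matches to CANNTG (the general E-box), CCAAT or TATATAA, on either strand.
HAND2: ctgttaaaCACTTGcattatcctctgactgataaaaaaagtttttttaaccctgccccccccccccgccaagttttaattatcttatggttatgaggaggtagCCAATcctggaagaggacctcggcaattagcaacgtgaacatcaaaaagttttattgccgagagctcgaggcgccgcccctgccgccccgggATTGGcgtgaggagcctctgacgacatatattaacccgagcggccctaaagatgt
HAND1: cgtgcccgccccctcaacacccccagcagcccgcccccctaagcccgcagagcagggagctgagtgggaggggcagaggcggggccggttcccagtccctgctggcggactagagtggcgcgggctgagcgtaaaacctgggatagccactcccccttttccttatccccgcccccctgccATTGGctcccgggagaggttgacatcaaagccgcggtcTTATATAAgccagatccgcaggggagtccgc
The HAND2 window held 1 CANNTG, 242 bases upstream of the start, and 2 CCAAT motifs, 147 and 55 bases upstream. The HAND1 window held no CANNTG, 1 CCAAT motif 69 bases upstream, and TATATAA on both strands in overlapping positions, 31 and 30 bases upstream. Neither window held CACGTG, the E-box preferred by MYC proteins, or CGTCTG, a site preferred by HAND dimers. In the matching 250 bases of 35116 RefSeq promoters, CANNTG was found in 61.8%, CCAAT in 32%, TATATAA in 2.42%, CACGTG in 6.34% and CGTCTG in 7.21%. CANNTG also covers CACGTG. These are matches of letters and not binding sites.

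In the deposited table HAND1 lies on chr5:153854532-153857825 and HAND2 on chr4:174447652-174451379, both on the minus strand of hg19, and HAND2-AS1 lies on chr4:174449751-174512407 on the plus strand. The spans of HAND2 and HAND2-AS1 overlap by 1629 bases. In the GENCODE annotation of that build, 58 of 65 HAND2-AS1 transcripts start upstream of HAND2, and the most frequent start, used by 13 of them, is 228 bases away from that of HAND2-201. Exons of 7 HAND2-AS1 transcripts overlap exons of HAND2-201, by at most 106 bases. In HAND2-AS1-231 the overlap is 105 bases, all of them coding in HAND2. Whether strand was used in counting was not given in the sources used here, so reads over the overlap cannot be assigned with certainty to either gene.

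**Figure D1:**
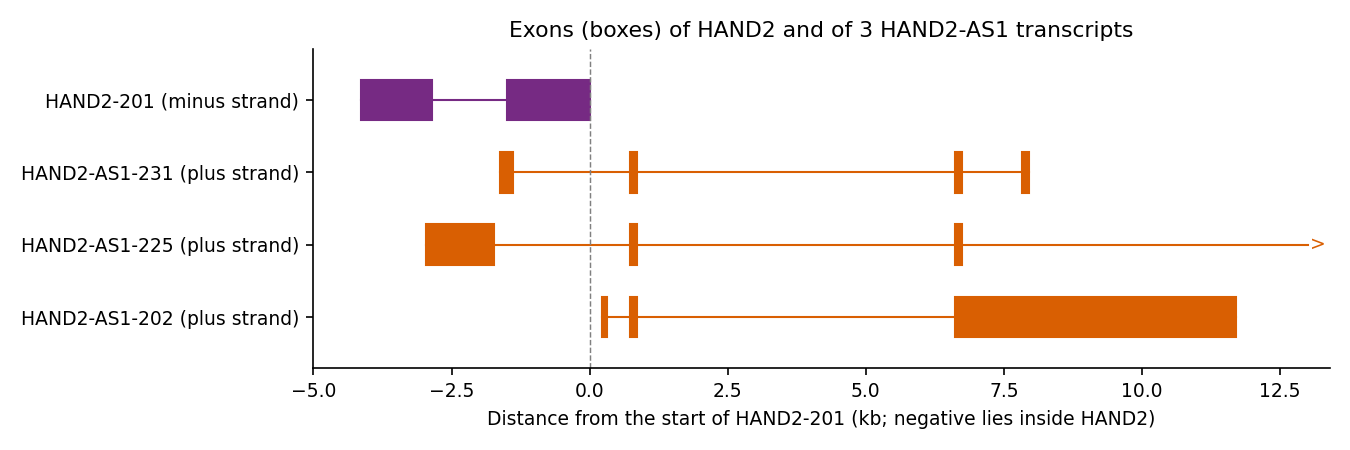
Exons (boxes) and introns (lines) of HAND2-201 on the minus strand and of 3 HAND2-AS1 transcripts on the plus strand, against the distance in kb from the start of HAND2-201; the arrowhead marks a transcript that runs on. HAND2-AS1-202 starts outside HAND2, while HAND2-AS1-231 and HAND2-AS1-225 start inside it.

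The libraries held 31.6 to 64.2 M reads as inferred from the steps between low CPM values, which put 3 reads at 0.0468 to 0.0949 CPM. HAND1 rested on 92 to 1150 reads per sample, HAND2 on 1716 to 14573 and HAND2-AS1 on 3700 to 7234. The listed genes held 65.1% ± 0.74 of the reads in controls, 62.4% ± 0.98 with siMYCN, 59.4% ± 2.39 with siHAND2 and 51.4% ± 7.04 with both (SD, n = 3), with a range of 44.3% to 58.4% in the last group. On the deposited values the median log2 fold change over all tested genes was 0.006 for siMYCN, -0.14 for siHAND2 and -0.28 for siMYCN+siHAND2 against siCtrl. Rescaling the samples by median ratios brought these medians to 0.014, 0.012 and 0.045. Rescaled changes against siCtrl are given for the 3 transcripts, and for other named genes where the call or the sign changed or a called value moved by over 1.5 times. Of 7 sympathetic neuroblast markers, 6 averaged at least 1 CPM over the 12 samples, and TH, the enzyme that opens catecholamine synthesis, was below it. The summed level of these markers ran from 521 to 545 CPM in siCtrl, 685 to 709 in siMYCN, 601 to 655 in siHAND2 and 444 to 707 in siMYCN+siHAND2. Of 7 fibroblast markers COL1A2, PRRX1 and DCN were below 0.1 CPM, and 3 averaged at least 1 CPM. Their sum ran from 115 to 124, 149 to 159, 54.5 to 66.0 and 29.8 to 47.2 CPM in the same order. Of 6 Schwann cell or melanocyte markers 1 was below 0.1 CPM, and their sum ran from 17.1 to 19.4, 36.2 to 36.8, 39.9 to 40.4 and 29.8 to 55.1 CPM. Endothelial, leukocyte and cardiac muscle markers each summed to at most 2.07 CPM. In bulk RNA fewer cells of a type and less RNA per cell cannot be told apart, and the part of these markers in the results was not tested.

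MYCN, the other targeted gene, averaged 1009 ± 42.6 CPM in the control group (SD, n = 3). It averaged 682 ± 22.8 CPM with siMYCN, 849 ± 48.7 with siHAND2 and 482 ± 64.3 with both, so it was lowest in the samples that received its siRNA. These means were 67.5%, 84.1% and 47.7% of the control mean as deposited and 68.0%, 93.9% and 61.0% after rescaling. The siHAND2 samples then overlapped the controls. The deposited table also lists MYCNOS over part of MYCN on the other strand. MYCNOS averaged 18.4, 26.1, 12.6 and 16.5 CPM in siCtrl, siMYCN, siHAND2 and siMYCN+siHAND2.

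HAND2 itself, the target of the siRNA, was among the most abundant genes of the control cells. The siCtrl samples measured 224, 241 and 254 CPM, a mean of 239 ± 15.3 (SD, n = 3) that exceeded 98.6% of the listed genes. The siHAND2 samples measured 54.3, 64.9 and 67.7 CPM, or 26.0% of the control mean (62.3 ± 7.06). The siMYCN+siHAND2 samples measured 86.3, 67.1 and 67.2 CPM, or 30.7% of it (73.5 ± 11.1). Every sample with the HAND2 siRNA lay below every sample without it, and HAND2 RNA was still measured in all 6. The log2 fold change was -1.93 (SE 0.12, adjusted p = 3.4e-12) in siHAND2 and -1.70 (SE 0.12, adjusted p = 5.8e-12) in siMYCN+siHAND2, both against siCtrl, by limma with Benjamini-Hochberg adjustment over all tested genes. Rescaling changed these to -1.77 and -1.34.

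HAND1, which the siRNA was not labelled to target, was lower by a larger factor than HAND2. It shares coding runs of 23 and 22 bases with HAND2, and the siRNA sequence was not given. Whether the siRNA acted on HAND1 RNA directly or by way of HAND2 was not tested. The siCtrl samples measured 19.2, 18.0 and 18.0 CPM (18.4 ± 0.71), above 76.3% of the listed genes. The siHAND2 samples measured 3.45, 2.74 and 2.83 CPM (3.01 ± 0.39), or 16.3% of the control mean. The siMYCN+siHAND2 samples measured 3.55, 2.38 and 3.29 CPM (3.08 ± 0.61), or 16.7% of it. These 6 samples lay far below the other samples, and all were above the 3-read level. Against siCtrl this gave a log2 fold change of -2.28 (SE 0.12) in siHAND2, with a limma adjusted p of 8.9e-14. In siMYCN+siHAND2 the value was -2.26 (SE 0.12), with an adjusted p of 2.3e-14. Rescaled values were -2.13 and -1.96. In siHAND2 only 11 of the 12680 tested genes had a lower fold change than HAND1, and 24 had a lower one than HAND2. In siMYCN+siHAND2 those counts were 40 and 275.

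HAND2-AS1 did not follow HAND2 in the siHAND2 samples. It measured 118, 128 and 114 CPM in siCtrl (120 ± 7.18), more than 96.5% of the listed genes. It measured 117, 109 and 107 CPM in siHAND2 (111 ± 5.56), which was 92.6% of the control mean, and these ranges overlapped. Its log2 fold change was -0.11 (SE 0.11, 95% interval -0.33 to 0.11, limma adjusted p = 0.43) as deposited and turned to 0.049 (adjusted p = 0.56) after rescaling. The interval of the deposited value leaves out a fall as large as that of HAND2. In siMYCN+siHAND2 it measured 113, 107 and 99.3 CPM (106 ± 6.77), just below every control sample. That change was -0.17 (95% interval -0.39 to 0.05, adjusted p = 0.16) as deposited and 0.19 (adjusted p = 0.022) after rescaling, so its direction depended on the scale. Without siMYCN+siHAND2 replicate 1 the deposited change was -0.21 and passed the threshold (adjusted p = 0.031).

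In siHAND2 against siCtrl, 2 of the 3 genes thus passed an adjusted p under 0.05, where 42.7% of all tested genes did and 30.4% did so as lower. In siMYCN+siHAND2 against siCtrl the same 2 genes passed, where 67.4% of tested genes did and 50.1% did so as lower. Of the genes called, 1556 were higher and 3855 lower in siHAND2 as deposited, against 3286 and 3153 after rescaling. In siMYCN+siHAND2 they were 2200 and 6351 as deposited, against 4776 and 4186. Both comparisons share the siCtrl samples.

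**Figure D2:**
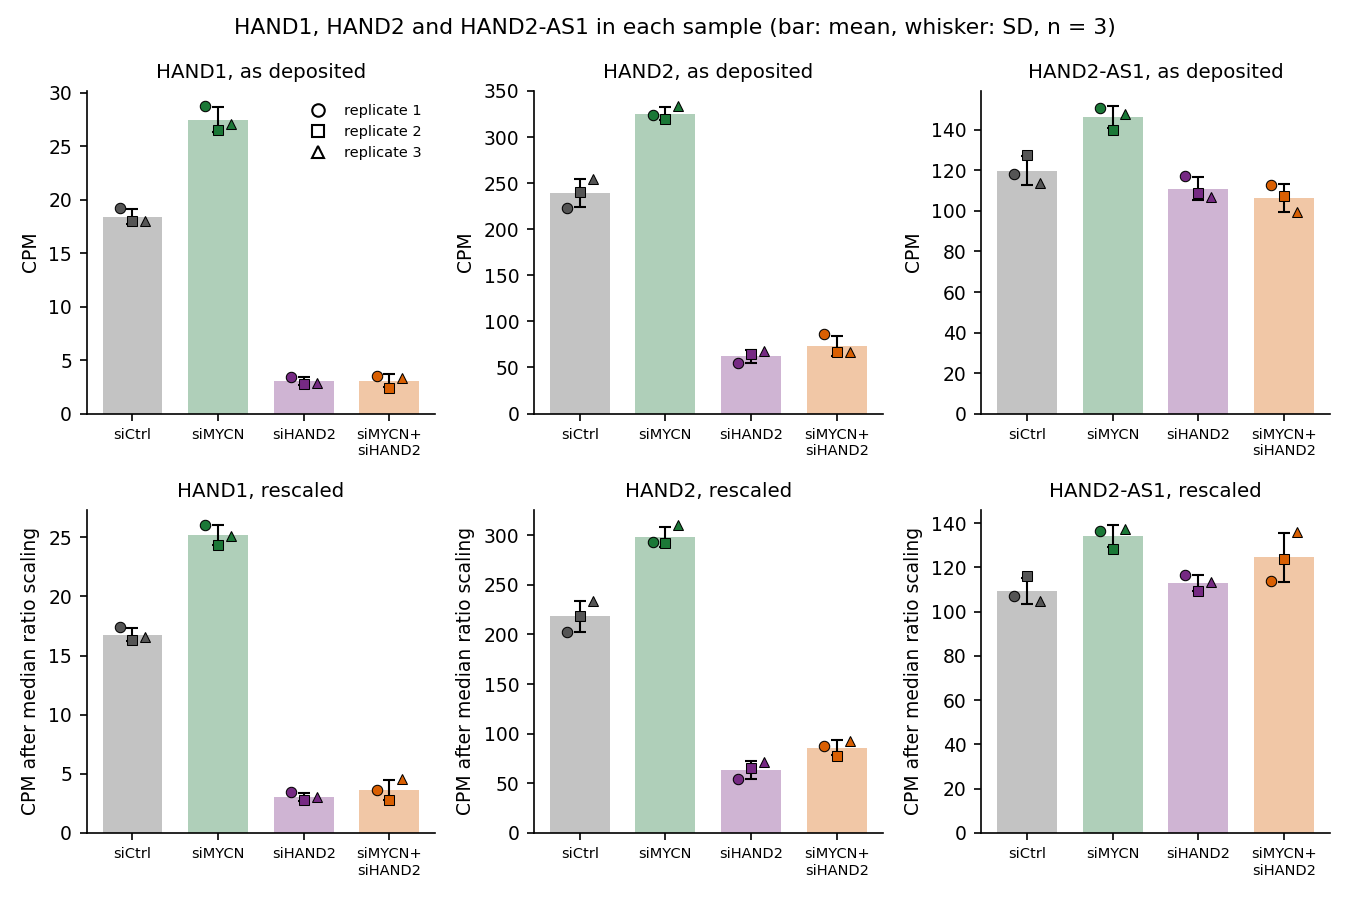
CPM of HAND1, HAND2 and HAND2-AS1 in each of the 12 samples, as deposited (top) and after median ratio scaling (bottom); bars are group means, whiskers SD, and symbols the replicates. HAND1 and HAND2 were lowest in both groups that received the HAND2 siRNA on both scales, while for HAND2-AS1 the siMYCN+siHAND2 mean lay below the siCtrl mean as deposited and above it after scaling.

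With MYCN knocked down alone, all 3 transcripts were higher. HAND1 measured 28.8, 26.5 and 27.1 CPM (27.4 ± 1.16), which was 149% of the control mean. HAND2 measured 324, 319 and 334 CPM (326 ± 7.5), or 136%. HAND2-AS1 measured 151, 140 and 148 CPM (146 ± 5.56), or 122%. For each gene, the lowest siMYCN sample lay above the highest siCtrl sample. By an exact permutation test p was 0.1 for each, the smallest that 3 samples against 3 can give. How many of all tested genes were separated in this way was not counted. Fitted log2 fold changes against siCtrl were 0.55 for HAND1 (SE 0.12, limma adjusted p = 7.2e-04), 0.44 for HAND2 (SE 0.12, adjusted p = 0.0062) and 0.29 for HAND2-AS1 (SE 0.11, adjusted p = 0.044). All 3 genes rose, where 33.7% of tested genes passed and 17.4% did so as higher. Rescaling left the values at 0.56, 0.45 and 0.29. The call for HAND2-AS1 was the narrowest: it was lost in 10 of the 12 fits that left out 1 sample (log2 fold change 0.25 to 0.33) and kept only without siMYCN+siHAND2 replicate 1 or 3. Among all tested genes, 912 had a higher fold change than HAND1 and 1381 a higher one than HAND2.

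With the HAND2 siRNA added to the MYCN siRNA, all 3 transcripts were lower than with the MYCN siRNA alone. Against siMYCN alone, the log2 fold change in siMYCN+siHAND2 was -2.81 for HAND1 (SE 0.12, limma adjusted p = 9.2e-16) and -2.14 for HAND2 (SE 0.12, adjusted p = 2.7e-13). For HAND2-AS1 it was -0.46 (SE 0.11, adjusted p = 8.9e-04), and all 3 siMYCN+siHAND2 samples lay below all 3 siMYCN samples (exact permutation p = 0.1). The share of all tested genes separated in this way was not counted. All 3 genes passed, where 58.9% of tested genes did and 50% did so as lower. After rescaling, HAND1 (-2.52) and HAND2 (-1.79) passed, and HAND2-AS1 did not (-0.11, adjusted p = 0.17). Only 9 tested genes had a lower fold change than HAND1 in this comparison, and 45 a lower one than HAND2.

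Adding the MYCN siRNA to the HAND2 siRNA moved the 3 transcripts much less, and none passed as deposited, where 40.3% of tested genes did. The log2 fold change in siMYCN+siHAND2 against siHAND2 was 0.018 for HAND1 (95% interval -0.23 to 0.26, limma adjusted p = 0.92). It was 0.23 for HAND2 (95% interval -0.02 to 0.48, adjusted p = 0.13), and the ranges of the 2 groups overlapped. After rescaling the HAND2 samples no longer overlapped, and the value of 0.43 passed (adjusted p = 0.0016). As deposited it also passed without siMYCN+siHAND2 replicate 3, at 0.29. HAND2-AS1 gave -0.06 (95% interval -0.29 to 0.16, adjusted p = 0.67) as deposited and 0.14 (adjusted p = 0.10) after rescaling.

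Whether the effect of one siRNA depended on the other was tested as an interaction. It was -0.53 for HAND1 (SE 0.17, limma adjusted p = 0.069), -0.21 for HAND2 (SE 0.17, adjusted p = 0.46) and -0.35 for HAND2-AS1 (SE 0.15, adjusted p = 0.20), so none passed, where 4.01% of tested genes did. Of those 508 genes, 45 had a positive and 463 a negative interaction. The median interaction over all tested genes was -0.18 as deposited and -0.0091 after rescaling, where the value of HAND2 was -0.023. The rise of HAND1 with MYCN knockdown was 0.55 without the HAND2 siRNA and 0.018 with it, and whether these differed depended on the fit. With a replicate block the interaction of HAND1 passed (-0.53, limma adjusted p = 0.021). On the deposited values, samples of the same number did not deviate together throughout between siMYCN+siHAND2 and any other group. That does not exclude pairing. The interaction of HAND1 also passed without siMYCN+siHAND2 replicate 1 (-0.62) or replicate 3 (-0.58). After rescaling it was -0.39 (adjusted p = 0.16). For HAND2-AS1 it passed without siMYCN+siHAND2 replicate 1, at -0.39.

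**Figure D3:**
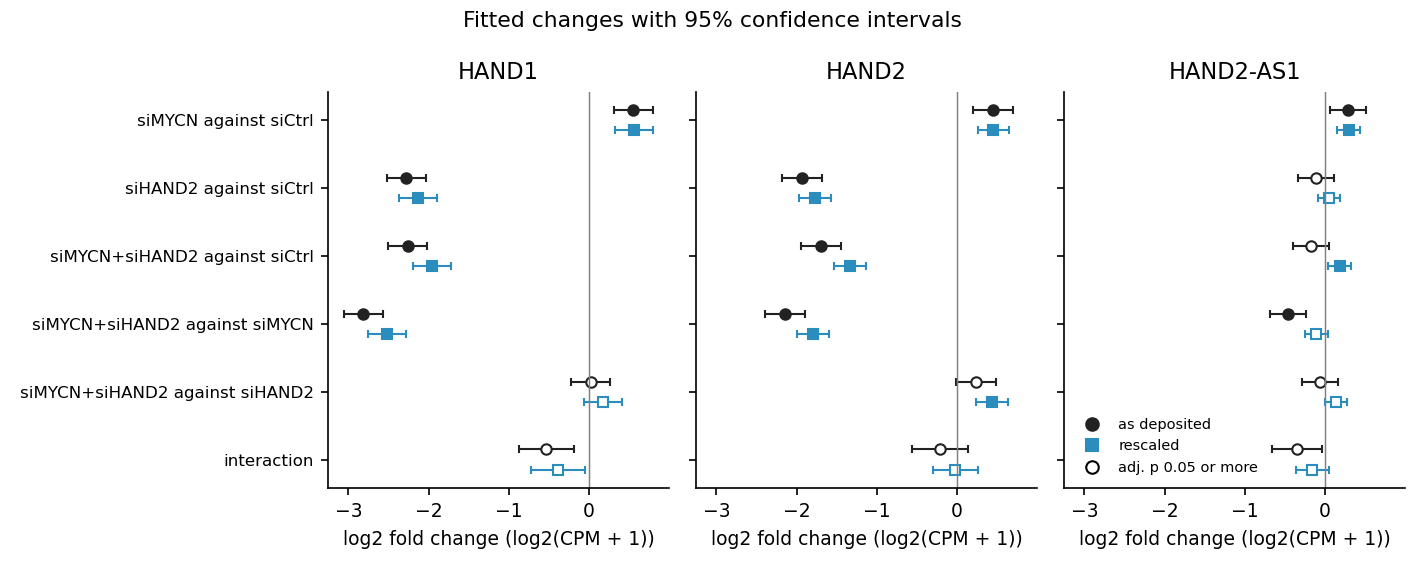
Fitted log2 fold changes of HAND1, HAND2 and HAND2-AS1 with 95% confidence intervals for 5 comparisons and the interaction, on log2(CPM + 1), as deposited (circles) and after median ratio scaling (squares); filled symbols passed an adjusted p under 0.05. HAND1 and HAND2 kept their direction on both scales where they passed, and HAND2-AS1 changed sign for siHAND2 and for siMYCN+siHAND2 against siCtrl and for siMYCN+siHAND2 against siHAND2.

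Ordered by level, HAND2 ran from siMYCN over siCtrl down to siMYCN+siHAND2 and siHAND2, of which the last 2 overlapped as deposited. HAND1 had the same order, and its last 2 groups also overlapped. For HAND2-AS1 the order was siMYCN, siCtrl, siHAND2 and siMYCN+siHAND2, with overlap between siCtrl and siHAND2 and between siHAND2 and siMYCN+siHAND2. Per kb of the HAND1-201 (1701 bases) and HAND2-201 (2780 bases) transcripts, the level in siCtrl was 10.8 ± 0.42 CPM per kb for HAND1 and 86.1 ± 5.49 for HAND2. Per length HAND2 thus stood at 7.98 ± 0.79 times HAND1 in controls, 7.27 ± 0.34 times with siMYCN, 12.9 ± 2.85 times with siHAND2 and 14.9 ± 2.36 times with both (SD, n = 3). These lengths may differ from those counted. HAND2-201 reaches down to chr4:174447242, beyond the deposited HAND2 row, which stops at 174447652. HAND1-201 ends at chr5:153857787 and the deposited HAND1 row at 153857825. The annotation used in counting was not given, so the ratios per length are approximate. No length was set for HAND2-AS1, whose transcripts vary widely.

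Ratios within a sample do not depend on how that sample was scaled. The CPM ratio of HAND2-AS1 to HAND2 was 0.503 ± 0.048 in siCtrl and 0.450 ± 0.015 in siMYCN, and it was 1.81 ± 0.31 in siHAND2 and 1.46 ± 0.15 in siMYCN+siHAND2 (SD, n = 3). The antisense row exceeded the HAND2 row in all 6 samples with the HAND2 siRNA and in none of the others. HAND2, the target of the siRNA, is the denominator, so its knockdown raises this ratio without any rise of HAND2-AS1. In siHAND2 and siMYCN+siHAND2 HAND2 stood at 26.0% and 30.7% of its control mean and HAND2-AS1 at 92.6% and 88.7%, as deposited. On the log2 scale the ratio was higher by 1.84 (3.57-fold) in siHAND2 and by 1.54 (2.9-fold) in siMYCN+siHAND2 than in siCtrl, without overlap. An exact two-sided permutation test gave p = 0.1 for each, the smallest that 3 samples against 3 can give, and 0.167 adjusted over 10 ratio comparisons. Between siMYCN and siCtrl the ratio differed by -0.16 (exact permutation p = 0.2, adjusted 0.25), with overlap.

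The CPM ratio of HAND1 to HAND2 was 0.0772 ± 0.0079 in siCtrl and 0.0843 ± 0.0041 in siMYCN. It was 0.0492 ± 0.0124 in siHAND2 and 0.0419 ± 0.0067 in siMYCN+siHAND2. HAND1 thus lost more than HAND2 in relative terms, by -0.67 on the log2 scale in siHAND2 and by -0.89 in siMYCN+siHAND2 against siCtrl. Neither group overlapped with siCtrl (exact permutation p = 0.1, adjusted 0.167). Between siMYCN and siCtrl the ratio differed by 0.13, with overlap (exact permutation p = 0.3, adjusted 0.333). With a pseudocount of 1 the siHAND2 difference shrank to -0.35.

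**Figure D4:**
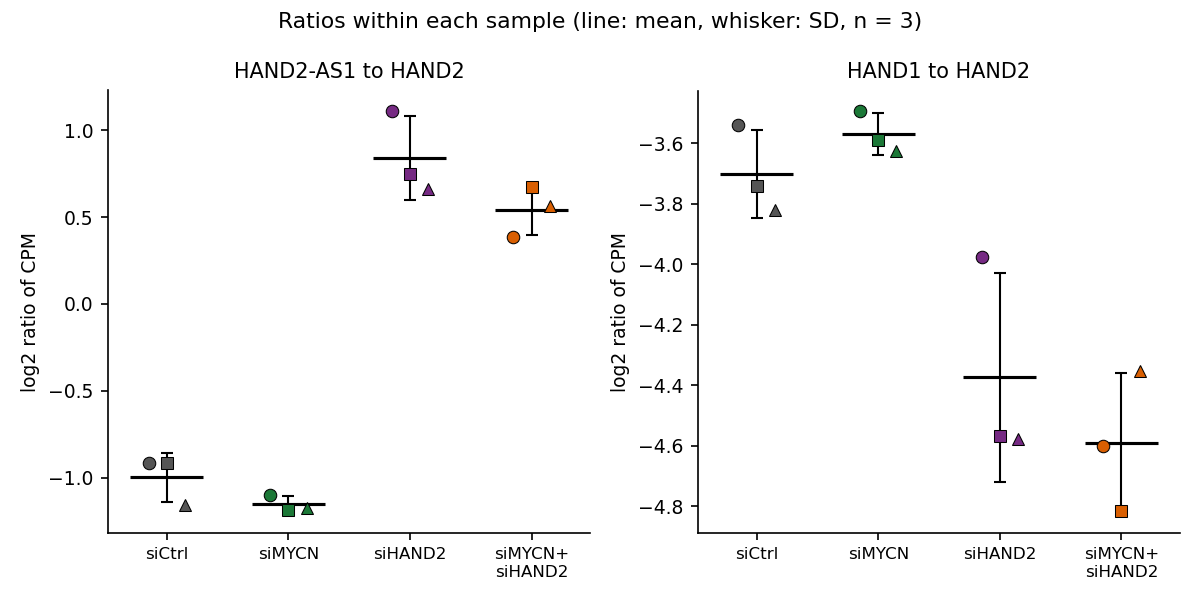
Log2 ratio of CPM of HAND2-AS1 to HAND2 (left) and of HAND1 to HAND2 (right) in each of the 12 samples; lines are group means and whiskers SD. The left ratio lies above 0 in the 6 samples with the HAND2 siRNA and below 0 in the others, and the right ratio is lowest in the same 6 samples.

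The genes whose profile over the 12 samples was most like that of each transcript were ranked by the root mean square difference of log2(CPM + 1), each gene taken relative to its own siCtrl mean. They were drawn from genes with a mean of at least 5 CPM. For HAND1 they were FLRT3 (0.203), ARHGAP29 (0.214), LRP1B (0.274), BNC2 (0.306) and LAYN (0.328). FLRT3, a membrane protein with leucine-rich repeats, averaged 24.8, 38.5, 3.49 and 4.65 CPM in siCtrl, siMYCN, siHAND2 and siMYCN+siHAND2. ARHGAP29, a GTPase-activating protein, averaged 33.5, 57.4, 5.29 and 6.93 CPM in the same order. Both rose in siMYCN and fell in both groups with the HAND2 siRNA, a likeness to HAND1 for which they were picked.

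For HAND2 the nearest were NGFR (0.226), HEG1 (0.252), DACT1 (0.253), LIMA1 (0.270) and ATP10D (0.273). NGFR, the low-affinity neurotrophin receptor, averaged 48.1, 52.3, 12.1 and 14.4 CPM in that order of groups. Its siMYCN change of 0.12 did not pass (limma adjusted p = 0.59), while HEG1 passed at 0.55 (adjusted p = 0.0040) and DACT1, an antagonist of Wnt signalling, at 0.45 (adjusted p = 0.0046). For HAND2-AS1 the 5 nearest included GTF2IRD1 (0.079), RYBP (0.080), USP32 (0.081) and RNF141 (0.082). These distances are small because the transcript itself moved little: 1936 genes lay within 0.2 of it, and none lay that close to HAND1 or HAND2. After rescaling each transcript kept the same 5 genes.

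Genes within 500 kb of the 2 loci were followed as well. Around HAND2, 3 genes other than HAND2-AS1 were tested. SAP30, a subunit of a histone deacetylase complex 149 kb away, averaged 22.3 CPM in siCtrl and changed by -0.50 in siHAND2 and -0.89 in siMYCN+siHAND2. HMGB2, a chromatin protein 192 kb away, averaged 287 CPM and changed by -0.74 and -1.25. All these changes passed (limma adjusted p at most 0.0012) and kept their sign after rescaling, at -0.35 and -0.56 for SAP30 and -0.58 and -0.89 for HMGB2. GALNT7 passed only in siMYCN+siHAND2 (-0.37, adjusted p = 0.014), not after rescaling (-0.026) and not without siCtrl replicate 2 (-0.33) or siMYCN+siHAND2 replicate 3 (-0.20). None of the 3 passed in siMYCN. Around HAND1, 9 genes were tested, and 1 was higher and 2 lower in siMYCN, 4 lower in siHAND2 and 5 lower in siMYCN+siHAND2. After rescaling siMYCN kept these counts, 1 gene was higher and 4 were lower in siHAND2, and 3 were higher and 4 lower in siMYCN+siHAND2. Over all tested genes 16.3% were lower in siMYCN as deposited, beside 30.4% and 50.1% in the groups with the HAND2 siRNA. Those called higher were 17.4%, 12.3% and 17.4%. After rescaling 25.4% were higher and 22.5% lower in siMYCN, 25.9% and 24.9% in siHAND2, and 37.7% and 33% in siMYCN+siHAND2. The counts of the gene groups described next stand beside these shares. Those groups were listed with earlier results of these data known, so setting them beside the shares is not a test.

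Of 10 other genes of the HAND and TWIST class, 3 were tested. TWIST1, which acts in mesenchyme and neural crest, averaged 58.8 ± 3.88 CPM in controls, 67.4 ± 2.54 with siMYCN, 32.1 ± 0.68 with siHAND2 and 32.8 ± 4.63 with both. It fell in siHAND2 (log2 fold change -0.85, SE 0.11, limma adjusted p = 1.3e-06) and in siMYCN+siHAND2 (-0.83), at -0.69 and -0.48 after rescaling. TCF15, below 5 CPM, fell in siMYCN+siHAND2, and MSC, also below 5 CPM, passed in both groups with the HAND2 siRNA but not after rescaling. Those calls of MSC were lost in 8 and 5 of 12 leave-one-out fits. None of the 3 passed in siMYCN as deposited, and with the replicate number as a block 1 of them was lower. After rescaling TWIST1 was higher (0.20) and TCF15 lower (-0.33) in siMYCN. The median change of the 3 was -0.09, -0.35 and -0.67 in siMYCN, siHAND2 and siMYCN+siHAND2, beside 0.006, -0.14 and -0.28 over all tested genes.

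Among the partners of HAND proteins, the E protein and ID genes were read apart. None of 3 E protein genes passed in siMYCN or siHAND2 as deposited. In siMYCN+siHAND2 TCF3 was lower (126 to 86.2 CPM, -0.57, limma adjusted p = 4.3e-04), at -0.21 after rescaling. TCF12 was just past the threshold at -0.29 (adjusted p = 0.047), which turned to 0.066 after rescaling and was lost in 11 of 12 leave-one-out fits. With the replicate block 1 of the 3 was higher in siMYCN. On the rescaled values TCF4 was higher in all 3 groups (0.31, 0.22 and 0.39), and TCF12 was lower in siMYCN (-0.22) and higher in siHAND2 (0.18). Of 4 ID genes, 2 were higher in siMYCN, 2 in siHAND2 and 3 in siMYCN+siHAND2, and none was lower. With the replicate block 3 of the ID genes were higher in siHAND2. ID4 averaged 1.5, 3.90, 5.94 and 13.2 CPM over siCtrl, siMYCN, siHAND2 and siMYCN+siHAND2, a rise of 0.97, 1.48 and 2.48 on the log2 scale (adjusted p at most 3.5e-06). ID2 rose by 0.48 in siMYCN and 0.50 in siMYCN+siHAND2, and ID1 by 0.57 in siHAND2 and 0.45 in siMYCN+siHAND2. The direction of these ID changes held after rescaling, where ID1 stood at 0.81 and ID2 at 0.85 in siMYCN+siHAND2. ID3 then passed as higher in both groups with the HAND2 siRNA (0.49 and 0.59).

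In the BMP pathway, upstream of HAND2 in sympathetic cells, only 1 of 9 ligand genes was expressed enough to be tested (GDF7), and it passed only after rescaling, in siMYCN+siHAND2 (0.50, limma adjusted p = 0.043). Of 8 receptor and co-receptor genes, 2 rose in siMYCN, 2 rose and 1 fell in siHAND2, and 3 rose and 2 fell in siMYCN+siHAND2, as deposited. After rescaling 4 were higher in siMYCN, 4 higher and 1 lower in siHAND2, and 5 higher and 1 lower in siMYCN+siHAND2. BMPR2, the type II receptor, rose in all 3 groups, by 0.62, 0.55 and 0.72. BMPR1B, a type I receptor, fell in siHAND2 (-0.52) and in siMYCN+siHAND2 (-1.39). RGMB, a co-receptor, rose by 0.45 and 0.87 in those groups, and ACVR2A rose by 0.38 in siMYCN and 0.30 in siMYCN+siHAND2. The siHAND2 call of BMPR2 and the siMYCN call of ACVR2A were lost without siCtrl replicate 3 (0.41 and 0.35), and the siMYCN+siHAND2 call of ACVR2A in 3 of 12 leave-one-out fits. BMPR1A passed as lower in siMYCN+siHAND2 (-0.33) but turned to 0.027 after rescaling. The calls made only after rescaling were RGMB (0.30) and BMPR1A (0.17) in siMYCN, ACVR2A (0.42) and ACVR2B (0.47) in siHAND2, and ACVR2B (0.31) and RGMA (0.41) in siMYCN+siHAND2. ACVR2A in siMYCN+siHAND2 moved to 0.65. With the replicate block 3 receptor genes were higher in siMYCN and 4 in siHAND2.

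Of the 4 SMAD genes that carry the BMP signal, 1 rose in siMYCN, and 2 rose and 1 fell in each group with the HAND2 siRNA, as deposited. SMAD1 rose by 0.38, 0.71 and 1.21 in siMYCN, siHAND2 and siMYCN+siHAND2. SMAD9 rose by 0.58 and 0.56, and SMAD5 fell (-0.35 and -0.77), in the last 2 groups. Rescaled values were 0.92 for SMAD9 in siMYCN+siHAND2 and -0.20 and -0.41 for SMAD5. After rescaling SMAD9 (0.32) and SMAD4 (0.26) also passed as higher in siMYCN, and SMAD4 (0.18) in siMYCN+siHAND2. Of 5 tested inhibitors, BAMBI, a decoy receptor, rose by 0.57 in siMYCN and fell by 0.40 in siHAND2 (-0.27 after rescaling). SMAD7 rose by 0.37 in siHAND2. SMAD6 (-0.27, 0.061 after rescaling) and SMURF1 (-0.35, -0.0076 after rescaling) passed as lower in siMYCN+siHAND2 on the deposited scale only. Calls made only after rescaling were SMAD7 (0.28 in siMYCN and 0.58 in siMYCN+siHAND2), BAMBI (0.22 in siMYCN+siHAND2) and SMURF2, which was higher in all 3 groups (0.25, 0.21 and 0.30). Leaving out 1 of the 12 samples at a time ended the siMYCN call of SMAD1 in 7 fits, the siHAND2 call of SMAD5 in 5, that of SMAD7 in 2 (without siCtrl replicate 1, 0.30, or siHAND2 replicate 2, 0.32), and the siMYCN+siHAND2 calls of SMAD6 in 9 and SMURF1 in 1 (without siCtrl replicate 2, -0.24). With the block 2 SMAD genes and 2 inhibitors were higher in siMYCN.

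Of 11 tested transcription factors of noradrenergic neuroblasts, 6 rose and 1 fell in siMYCN, 3 rose and 4 fell in siHAND2, and 3 rose and 3 fell in siMYCN+siHAND2, as deposited. After rescaling 7 were higher and 1 lower in siMYCN, 5 and 4 in siHAND2, and 7 and 3 in siMYCN+siHAND2. With the replicate block 5 of these factors were lower in siHAND2. PHOX2A, which works with HAND2 on noradrenergic genes, averaged 68.5 ± 5.32, 115 ± 7.58, 16.0 ± 1.02 and 27.1 ± 6.96 CPM over the 4 groups, siCtrl first. It rose by 0.75 in siMYCN and fell in siHAND2 (-2.03) and siMYCN+siHAND2 (-1.33). MEIS2, a homeobox factor, fell in all 3 groups (-0.32, -0.98 and -1.69). ISL1 rose by 0.52, 1.11 and 1.54 and SOX11 by 0.61, 0.86 and 1.08 over siMYCN, siHAND2 and siMYCN+siHAND2. INSM1 rose by 0.85 and 0.48 in the groups with the HAND2 siRNA, the last being 0.83 after rescaling. In siMYCN GATA3 (0.48), TBX2 (0.70) and MEIS1 (0.41) also rose, and MEIS1 fell by 0.33 in siHAND2 (-0.17 after rescaling). The call of GATA3 was lost without siCtrl replicate 3 (0.40), and those of MEIS1 and MEIS2 in siMYCN in 2 and 5 of 12 leave-one-out fits and of MEIS1 in siHAND2 in 5. GATA2 did not pass in any of the 3 comparisons as deposited, and passed after rescaling in siHAND2 (0.39, limma adjusted p = 0.037) and siMYCN+siHAND2 (0.34, adjusted p = 0.047). GATA3 (0.27) and TBX2 (0.44) also passed as higher in siMYCN+siHAND2 only after rescaling, and MEIS1 there went from -0.21 to 0.15, passing on neither scale.

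Of 5 tested genes for noradrenaline synthesis, storage and uptake, 4 rose in siMYCN, 1 rose and 2 fell in siHAND2, and 2 rose and 2 fell in siMYCN+siHAND2, as deposited. DBH, the enzyme that makes noradrenaline from dopamine, averaged 2.65 ± 0.37, 7.99 ± 1.89, 0.929 ± 0.19 and 0.942 ± 0.33 CPM, siCtrl first. It rose by 1.29 in siMYCN and fell by 0.92 in each group with the HAND2 siRNA. SLC6A2, the noradrenaline transporter, averaged 17.1, 50.3, 7.19 and 14.6 CPM. It rose by 1.51 in siMYCN and fell by 1.14 in siHAND2, and its value of -0.23 in siMYCN+siHAND2 did not pass (limma adjusted p = 0.12) and turned to 0.11 after rescaling (adjusted p = 0.27). GCH1, which supplies the cofactor of TH, rose by 1.20 in siMYCN and by 0.66 in siMYCN+siHAND2. After rescaling it was 1.01 in siMYCN+siHAND2 and also passed in siHAND2 (0.38). DDC, the decarboxylase of the pathway, rose by 0.71, 0.57 and 0.36, the last one lost in 8 of 12 leave-one-out fits and lowest (0.12) without siMYCN+siHAND2 replicate 1. That last value was 0.70 after rescaling. SLC18A2, the vesicular transporter, passed as lower only in siMYCN+siHAND2 (-0.46), not after rescaling (-0.16). TH, under the filter on low values, averaged 0.12 ± 0.077, 0.35 ± 0.079, 1.07 ± 0.13 and 1.58 ± 0.44 CPM, siCtrl first. In the fit without a filter TH was higher in siHAND2 (0.89, limma adjusted p = 0.0010) and siMYCN+siHAND2 (1.20, adjusted p = 5.3e-05), as was CYB561, also under the filter, in siMYCN+siHAND2 (0.41). The TH value of 0.27 in siMYCN did not pass (adjusted p = 0.20). Of the genes of these lists, DBH, GCH1, DDC and BMPR1B had an interaction that passed (limma adjusted p at most 0.017), where 4.01% of all tested genes did. The values were -1.29, -0.76, -0.92 and -0.76 on the log2 scale, beside a median of -0.18 over all tested genes. The calls of GCH1 and DDC were lost without siCtrl replicate 2 (-0.69 and -0.85).

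In the heart HAND proteins work with other cardiac factors, and 4 of 12 such partners and targets were tested here. NPPA, which encodes atrial natriuretic peptide, averaged 0.947 ± 0.30 CPM in controls, 2.09 ± 0.25 with siMYCN, 11 ± 0.62 with siHAND2 and 14.2 ± 2.51 with both. It rose by 0.68, 2.63 and 2.96 on the log2 scale (limma adjusted p at most 2.5e-04). MEF2D rose by 0.53 and 0.63 in the groups with the HAND2 siRNA, and none of the 4 was lower. After rescaling MEF2D stood at 0.97 in siMYCN+siHAND2, and MEF2A passed as higher in all 3 groups (0.23, 0.28 and 0.59). The deposited table lists genes on the other strand over many of the genes named, among them NPPA-AS1 over NPPA, DBH-AS1 over DBH, INPPL1 over PHOX2A, LOC642366 over ISL1, RGMB-AS1 over RGMB, LOC100288866 over NGFR and MACROD2 over FLRT3, and reads over shared bases cannot be told apart without strand.

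**Figure D5:**
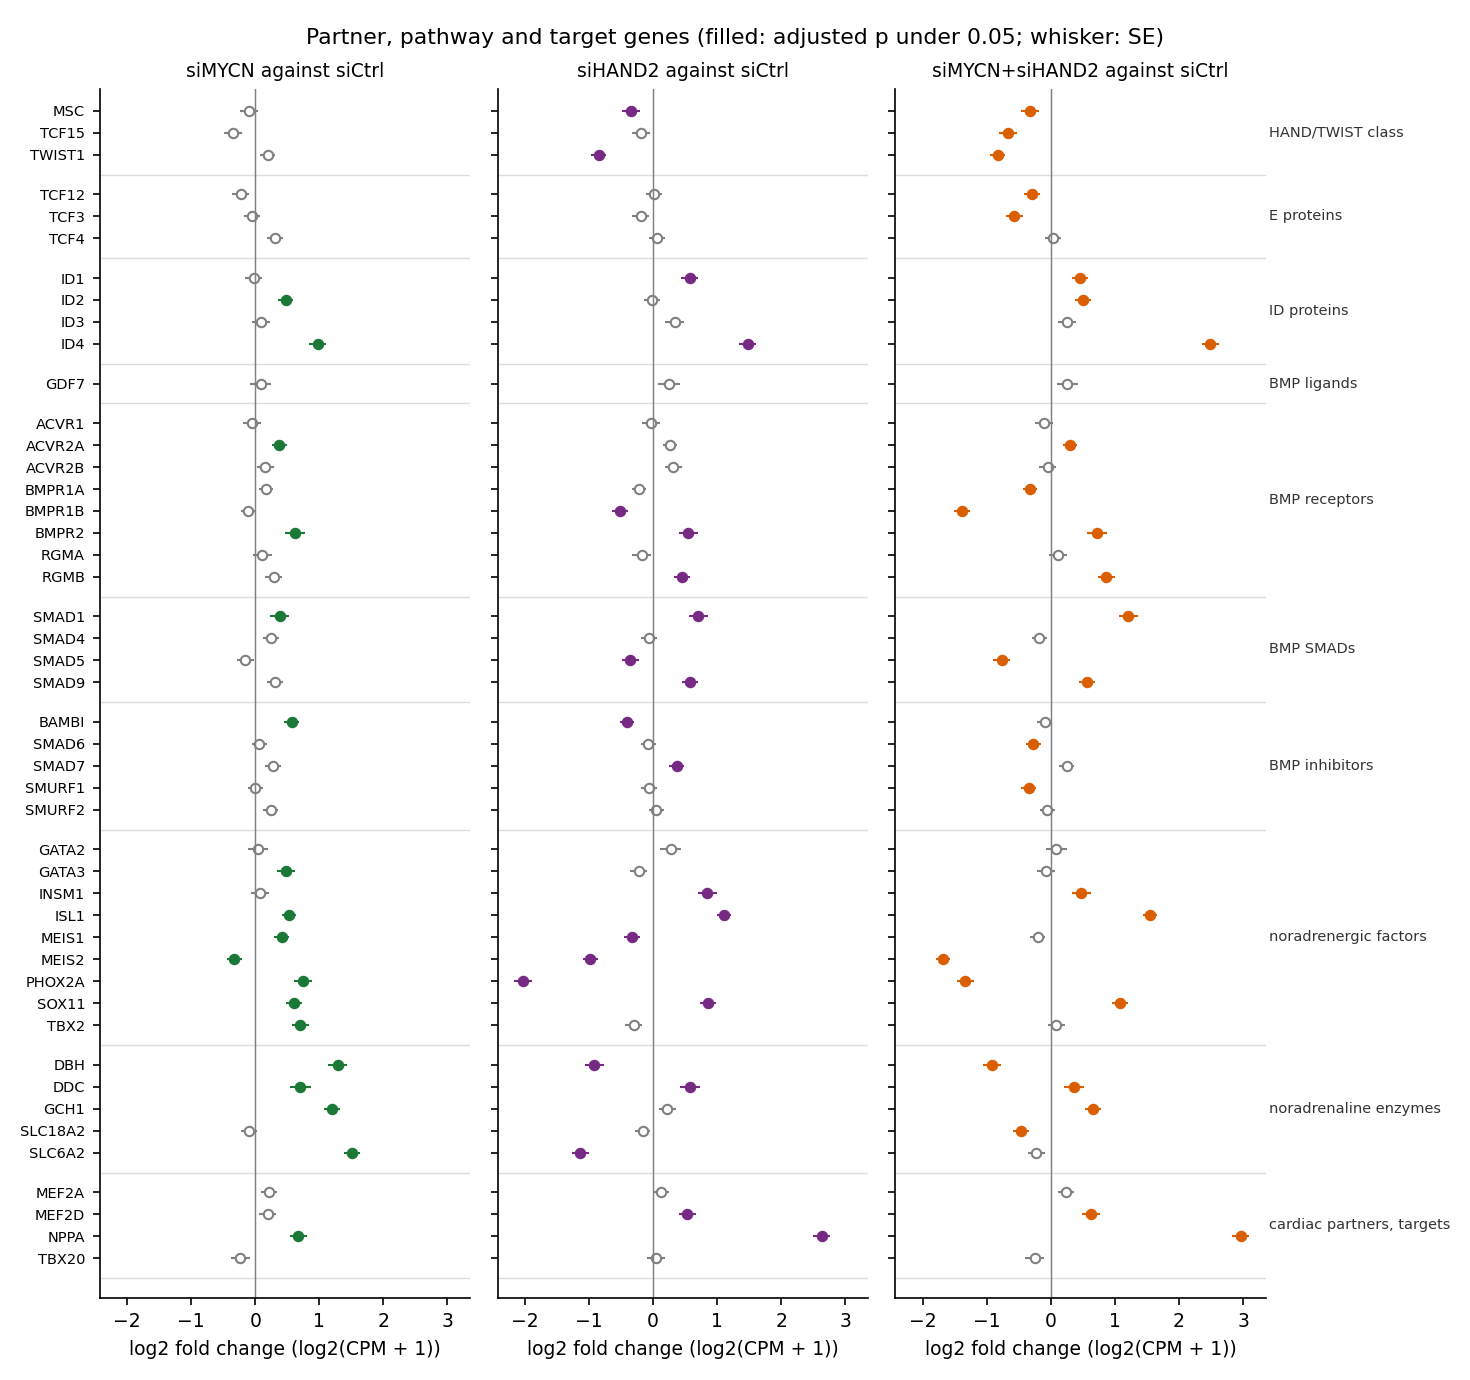
Log2 fold changes with SE, as deposited on log2(CPM + 1), of tested genes of the 10 lists in siMYCN, siHAND2 and siMYCN+siHAND2 against siCtrl; filled points passed an adjusted p under 0.05. ID4 and NPPA lie far to the right in both groups with the HAND2 siRNA and PHOX2A and MEIS2 far to the left, while TCF12, BMPR1A and SMAD6 passed as lower in siMYCN+siHAND2 and turned to 0.066, 0.027 and 0.061 after rescaling.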

How the data were processed

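RNA from 12 IMR32 samples, 3 in each of 4 siRNA groups, was sequenced. The authors aligned reads to hg19 with STAR 2.5.1 and used Partek, per the submitters' processing notes. The counting tool, its use of strand and its annotation are not given in the sources used here. The authors deposited 1 table of CPM values, in which 0.0001 stands in place of 0. Low values were whole multiples of 1 read within 0.1 read for 90.7% to 92.1% of values under 20 reads and 82.4% to 84.0% of those from 20 to 200 reads, under the 95% needed here, so no count test was used. Samples were grouped by their titles. No 2 libraries agreed within sampling noise (mean chi-square per gene 3.5 to 40.2), and each counted as 1 sample.

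Genes with a mean of at least 1 CPM were fitted on log2(CPM + 1) with limma 3.58.1 in R 4.3.3 over all samples (8 residual degrees of freedom), with trended variance, two-sided tests, Benjamini-Hochberg adjustment over all 12680 genes and a threshold of 0.05. The pseudocount understates changes of low genes. The interaction is the siMYCN+siHAND2 mean less the siMYCN and siHAND2 means plus the siCtrl mean. Rescaled values divide each sample by the median ratio of its genes to their geometric mean. On data simulated from the siCtrl means for siHAND2 against siCtrl (12539 genes), 89% of 100 genes raised 1.5-fold and 100% of 100 raised 2-fold were called. The simulation had no shift of scale between samples and the same assumed spread between replicates for every gene and group. The real data differ in both, with replicates furthest apart in siMYCN+siHAND2 (mean chi-square per gene 19.7 to 40.2). These shares may therefore not hold there and do not measure the power of the fit reported. Ratios were tested with exact permutation tests. Samples with the same replicate number deviated together between siCtrl and siMYCN (correlation 0.44, 0.15 and 0.31) and between siMYCN and siHAND2 (0.33, 0.14 and 0.32), which are not compared here, and no other pair of groups was above 0.1 throughout. These correlations were taken on the deposited scale. Within siMYCN+siHAND2 the share of reads in listed genes ran from 44.3% to 58.4%, so low correlations there cannot exclude pairing. The library numbers in the column headers run by replicate number across all 4 groups, and what they stand for is not given. By the correlations, the number was taken to pair siMYCN with siCtrl only, of the comparisons made. The fit reported has no block, so its p-values ignore any pairing, also in that comparison. With a block 4926, 6140 and 8951 genes were called in siMYCN, siHAND2 and siMYCN+siHAND2 against siCtrl, beside 4273, 5411 and 8551 without it. The hg19 sequence and the GENCODE v44 annotation lifted to it served for positions, and the RefSeq promoter table held both HAND genes. Other pseudocounts, filters, scalings, a replicate block and leaving out each sample were tried.

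The members and lists were chosen with earlier results of these data known. Genes named are the 3 members, MYCN, the genes of 10 lists, the 5 nearest profiles of each member and genes within 500 kb. The lists are the HAND and TWIST class, E proteins, ID proteins, BMP ligands, receptors, SMADs and inhibitors, noradrenergic factors, noradrenaline genes, and cardiac partners and targets. A few genes of these lists enter the counts but are not reported here by name.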

Additional observations from a re-analysis of the deposited data

Results flagged for a closer look

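For 5 of the genes named besides the 3 transcripts, the change with the MYCN siRNA differed by the test of interaction between cells with and without the HAND2 siRNA. They are listed because they passed that test, which 508 of 12680 tested genes (4.01%) did. Of those 508, 45 had a positive and 463 a negative interaction, at a median of -0.18 over all tested genes. After rescaling 212 of the genes that passed were positive and 567 negative. The interaction on the log2 scale was -1.29 for DBH (limma adjusted p = 5.7e-04), -0.76 for BMPR1B (0.011), -0.76 for GCH1 (0.014), -0.92 for DDC (0.017) and -0.64 for HMGB2 (0.038). After rescaling, the values in the same order were -1.18, -0.64, -0.57, -0.74 and -0.45, and all 5 passed. Without a filter on low values none of the 5 passed (limma adjusted p from 0.088 for DBH to 0.32 for DDC), with the same fold changes and 88 genes called in all. The call of HMGB2 was lost in 10 of 12 fits that left out 1 sample, at -0.67 to -0.57 in those fits, and those of GCH1 and DDC without siCtrl replicate 2, at -0.69 and -0.85.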

How the results depend on the processing

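The falls of HAND1 and HAND2 with the HAND2 siRNA and their rises with the MYCN siRNA kept direction and call under every alternative run (other pseudocount, filters, variance trend, scalings, replicate block, only the compared groups, each sample left out). HAND2-AS1 depended on the scale: under median ratio scaling, alone or with the block, and under scaling to the sum over listed genes, it turned to 0.049 and 0.022 in siHAND2, to 0.19 and 0.18 in siMYCN+siHAND2 and to 0.14 and 0.15 between them, and against siMYCN it was -0.11 under median ratios and passed at -0.17 under the listed sum. HAND2 between siMYCN+siHAND2 and siHAND2 passed under those scalings (0.43 and 0.45) and ran from 0.11 to 0.29 with 1 sample left out. Leaving out 1 sample gave HAND2-AS1 0.25 to 0.33 in siMYCN, -0.21 to -0.12 in siMYCN+siHAND2 and -0.39 to -0.30 for the interaction, and gave HAND1 -0.068 to 0.15 for siMYCN+siHAND2 against siHAND2 and -0.62 to -0.41 for the interaction. In a fit with a replicate block the HAND1 interaction (-0.53) passed at an adjusted p of 0.021, and no other call of the 3 genes changed. Samples of the same number did not deviate together throughout between siMYCN+siHAND2 and any other group, which does not exclude pairing. With a pseudocount of 1, the HAND1 to HAND2 ratio differed by -0.35 and -0.56 against siCtrl and by -0.67 against siMYCN. Genes called in siMYCN were 6480 with median ratios and the block and 6963 with only the compared groups. Genes with a called interaction were 88 without a filter, 779 and 795 under the 2 scalings, 1282 with the block, 1262 with both, and 263 to 4443 with 1 sample left out, the highest without siMYCN+siHAND2 replicate 1. In siMYCN+siHAND2, TCF12 turned to 0.066 and 0.057, BMPR1A to 0.027 and 0.017 and SMAD6 to 0.061 and 0.052 under the 2 scalings. The cause was not tested. HAND1 in the groups with the HAND2 siRNA rests on the fewest reads, from 92 in a sample.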
